A study of Mus musculus with 100 samples.

Results

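The 10 genes described here encode proteins that receive, block or report Wnt signals: the receptors Fzd1 and Fzd2, the secreted antagonists Sfrp1, Sfrp2, Sfrp4, Frzb, Dkk2, Dkk3 and Wif1, and the feedback gene Axin2. They were taken by name from the 17310 genes of a read count table of mouse knee joints, and all 10 were present. The joints came from 3 inbred strains, which the labels rank by their susceptibility to post-traumatic osteoarthritis: MRL/MpJ is given as not susceptible, C57BL/6 as moderately and STR/ort as highly susceptible. Every mouse was 10 weeks old when the right knee was loaded once in compression until the anterior cruciate ligament tore, and the uninjured contralateral left knee was the control. Joints came from untouched mice (0-day) or from injured mice at times named 1-day, 1-week and, last, 2-weeks. This gave 21 groups of 4 or 5 libraries and 100 libraries in all, 12 at 0-day, 30 at 1-day, 28 at 1-week and 30 at 2-weeks. The labels put 0-day, 1-day and 1-week in experimental batch 1 and 2-weeks in batch 2. Levels at 2-weeks were therefore not tested against those of earlier times, since time and batch cannot be told apart there. Except for the 2-weeks joints, whose labels tie both knees to 1 animal, no label says which libraries share an animal, so p-values measure the spread between libraries.

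Wnt ligands are secreted glycoproteins that bind Frizzled receptors such as Fzd1 and Fzd2 together with the co-receptors Lrp5 and Lrp6, which stops the destruction of beta-catenin and lets it act with TCF and LEF factors on target genes. Secreted Frizzled-related proteins (Sfrp1, Sfrp2, Sfrp4 and Frzb, also called Sfrp3) carry a Frizzled-like domain and bind Wnt ligands outside the cell, as does Wif1, Wnt inhibitory factor. Dickkopf proteins such as Dkk2 bind Lrp5 and Lrp6 instead, Dkk3 is a divergent member whose action on the pathway is less settled, and Axin2 is both a target of beta-catenin and part of the complex that destroys it. In the joint the pathway governs bone formation and the maintenance of cartilage, and Frzb is made by chondrocytes.

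The libraries held 6182016 to 20986027 counted reads, with a median of 10582591.5. The members were counted 20 (Fzd2) to 3316 (Dkk3) times per library, so none was at 0 in any library. The samples were whole joints with traces of soft tissue, and the summed levels of 8 skeletal muscle markers ranged from 13846 to 110229 over the libraries, in CPM, the usual depth-scaled read count with library totals adjusted by TMM. None of the 42 marker genes of fibroblasts, cartilage, osteoblasts, muscle, macrophages and endothelium was at 0 in any library. In such whole-joint samples, fewer cells of a type and less RNA per cell cannot be told apart. A gene was called when its edgeR quasi-likelihood test gave an adjusted p below 0.05 and its fold change was above 1.5, and each count of members called is given beside the share of all 17310 genes called in the same comparison. No such share was counted for groups whose libraries did not overlap, so those statements describe the members only. The study itself named Fzd2, Sfrp1 and Sfrp2 from these libraries, so counts that include them are no independent evidence of their direction.

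On the mm10 (GRCm38) mouse assembly, Fzd1 lies at chr5:4753839-4758216 on the minus strand and Fzd2 at chr11:102604431-102608058 on the plus strand. Sfrp1 lies at chr8:23411383-23449632 on the plus strand, Sfrp2 at chr3:83765750-83774314 on the plus strand, Sfrp4 at chr13:19623175-19632825 on the plus strand and Frzb at chr2:80411970-80447396 on the minus strand. Dkk2 lies at chr3:132085266-132180304 on the plus strand, Dkk3 at chr7:112116019-112159482 on the minus strand, Wif1 at chr10:121034004-121100642 on the plus strand and Axin2 at chr11:108917828-108950783 on the plus strand. Exons of Sfrp2 share 347 bases with the antisense gene Gm26771 and those of Axin2 share 209 bases with Gm11670. Whether reads were counted by strand is not given in the sources used here, so reads of these antisense genes cannot be told apart from those of Sfrp2 and Axin2.

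RefSeq promoter windows on GRCm38.p6 matched 6 of the 10 members. Those of Fzd1, a receptor that was higher after injury, and of Frzb and Wif1, antagonists called lower but never higher after injury, are shown as the 250 bases before the transcription start, 5′ to 3′ on the gene's strand. Capitals mark CTTTG, the core letters shared by TCF and LEF binding motifs, or its reverse complement CAAAG.
Fzd1, chr5:4758217-4758466, minus strand: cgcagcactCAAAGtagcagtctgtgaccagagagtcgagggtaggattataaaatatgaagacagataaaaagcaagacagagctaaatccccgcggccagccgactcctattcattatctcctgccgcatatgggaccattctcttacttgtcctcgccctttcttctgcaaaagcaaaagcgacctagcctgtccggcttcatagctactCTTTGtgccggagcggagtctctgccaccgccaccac
Frzb, chr2:80447397-80447646, minus strand: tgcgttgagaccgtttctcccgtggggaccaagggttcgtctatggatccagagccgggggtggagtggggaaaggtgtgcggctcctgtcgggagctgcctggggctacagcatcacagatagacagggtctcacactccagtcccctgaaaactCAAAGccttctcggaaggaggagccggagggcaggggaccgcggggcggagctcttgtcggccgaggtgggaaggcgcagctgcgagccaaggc
Wif1, chr10:121033754-121034003, plus strand: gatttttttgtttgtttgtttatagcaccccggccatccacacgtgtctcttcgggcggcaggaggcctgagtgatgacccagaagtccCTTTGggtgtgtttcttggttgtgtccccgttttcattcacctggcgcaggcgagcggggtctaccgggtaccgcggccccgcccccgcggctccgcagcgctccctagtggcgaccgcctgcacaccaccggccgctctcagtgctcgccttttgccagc
The core stood 236 and 32 bases before the start of Fzd1, 89 bases before that of Frzb, 75 bases before that of Dkk2 and 156 bases before that of Wif1. It was not found in the windows of Sfrp2 and Axin2. Of all 32851 promoter windows, 48.577% held the core on either strand. Counted by gene, 52.163% of 27025 genes did, against 4 of the 6 members that matched. The longer motif CTTTGAT, or ATCAAAG on the other strand, was in 3.205% of all windows, in 3.719% of genes and in 0 of the 6. These are matches of letters in 1 window and no evidence of a bound site.

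Levels differed widely between the members. Per kilobase of exon, the group means of Wif1 ran from 17.9 to 84.4 CPM and those of Dkk3 from 6.3 to 85.1 CPM, the upper end of the 10 genes. Sfrp2 reached 53.4 CPM per kilobase, Sfrp4 23.5, Sfrp1 19.5 and Fzd1 12.8. Axin2, at 0.59 to 1.83 CPM per kilobase, and Fzd2, at 0.915 to 4.14, were the lowest 2 members in each of the 21 groups, with Axin2 the lower in 16 groups and Fzd2 in 5. The range over groups was widest for Sfrp2, whose highest group mean was 16.1 times its lowest, followed by Dkk3 at 13.5 times and Sfrp1 at 11.6 times. Over all 21 groups it was narrowest for Frzb, at 2.65 times. The lowest means of Sfrp1, Sfrp2, Sfrp4, Dkk2 and Wif1 and the highest of Axin2 were at 2-weeks, so their ranges span both batches. Within batch 1 the group means of Axin2 ran from 3.249 to 7.075 CPM, a smaller ratio than that of Frzb, at 14.41 to 38.17 CPM per gene. The highest group mean of 6 members (Fzd1, Fzd2, Sfrp1, Sfrp4, Dkk2 and Dkk3) was that of injured STR/ort joints at 1-week. When the 21 groups of a member were put in order of their means, 2 of the 20 neighbouring pairs did not overlap in their libraries for Sfrp2 and for Dkk3, 1 pair for Sfrp4 and 0 pairs for the other 7 members, so ranks of adjacent groups are not separated by the spread. All further levels are CPM per gene, not per kilobase.

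Before injury, the strains were compared in joints of untouched mice. The receptor Fzd1 and most antagonists were lowest in MRL/MpJ: 7 of the 10 members were called higher in C57BL/6 than in MRL/MpJ and 7 higher in STR/ort than in MRL/MpJ, against 15.9% and 14.8% of all genes called in either direction. Between STR/ort and C57BL/6, only Sfrp2 was called, against 13.8% of all genes.

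Sfrp2, which binds Wnt ligands outside the cell, showed the widest gap at 0-day. It read 11.1, 7.79, 6.55 and 8.97 CPM in the 4 MRL/MpJ libraries, 32.6, 32.7, 23.6 and 41.9 CPM in C57BL/6, and 19.99, 21.8, 25.4 and 18.5 CPM in STR/ort. The MRL/MpJ libraries lay below all others. Its log2 fold change was 1.94 ± 0.17 (SE, adjusted p = 1.08e-07, edgeR) for C57BL/6 over MRL/MpJ, which is 3.83-fold, and 1.29 ± 0.18 (adjusted p = 2.00e-05, edgeR) for STR/ort over MRL/MpJ, which is 2.45-fold. STR/ort was lower than C57BL/6 by 0.64 ± 0.15 on the log2 scale (adjusted p = 0.00263, edgeR), with ranges that overlapped between 23.6 and 25.4 CPM. That last call was lost without C57BL/6 replicate 4 (log2 fold change -0.50) or without STR/ort replicate 4 (-0.58), and its direction turned with 2 factors of unwanted variation (0.08, adjusted p = 0.918, edgeR). With 2 factors the difference of C57BL/6 over MRL/MpJ fell to 0.86 and was not called (adjusted p = 0.283, edgeR).

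Fzd1 read 9.18, 6.63, 6.89 and 5.52 CPM in MRL/MpJ, 17.3, 13.6, 16.0 and 17.0 CPM in C57BL/6, and 16.4, 13.6, 19.8 and 14.9 CPM in STR/ort. No MRL/MpJ library reached the lowest of the other strains, and the fold changes over MRL/MpJ were 2.27 for C57BL/6 (adjusted p = 7.87e-06, edgeR) and 2.25 for STR/ort (adjusted p = 1.02e-05, edgeR). The second receptor, Fzd2, was called higher only in C57BL/6 (log2 fold change 0.69 ± 0.16) and stood 0.39 ± 0.17 higher in STR/ort, which was not called (adjusted p = 0.0837, edgeR).

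The mean level of Dkk3 over 4 libraries was 30.6 CPM in MRL/MpJ (SD 1.8), 62.2 in C57BL/6 (SD 9.68) and 54.1 in STR/ort (SD 8.83). For Wif1 the means were 65.1 (SD 6.11), 116 (SD 25.8) and 112 CPM (SD 15.6). In both genes the highest MRL/MpJ library lay below the lowest library of the other strains. Their log2 fold changes over MRL/MpJ were 1.06 and 0.82 for Dkk3 and 0.87 and 0.78 for Wif1, in C57BL/6 and STR/ort in that order. Dkk2 (0.77 and 0.94) and Sfrp4 (0.94 and 0.76) were called in both comparisons as well, with differences given in the same order. Frzb was called only in STR/ort over MRL/MpJ (log2 fold change 0.59 ± 0.12), just past the fold minimum of 1.5, and fell below it without any 1 of 4 libraries (MRL/MpJ replicate 2 or 4, STR/ort replicate 1 or 3, with 0.51 to 0.58). The call was also lost with 1 factor of unwanted variation (0.58) and with 2 (0.28, adjusted p = 0.116, edgeR). Sfrp1 (13.0, 15.3 and 14.6 CPM in MRL/MpJ, C57BL/6 and STR/ort) and Axin2 (6.49, 5.05 and 4.67 CPM) were called in no 0-day comparison.

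**Figure D1:**
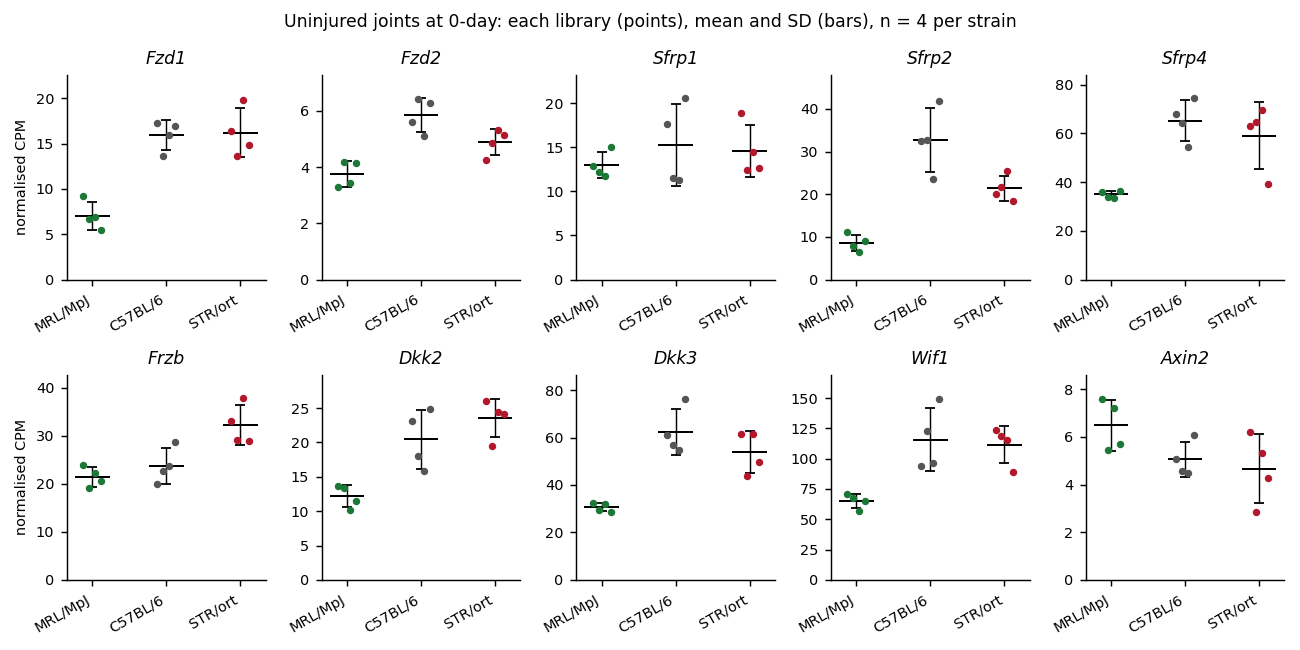
Normalised CPM (vertical axis) of the 10 genes in uninjured joints at 0-day, with 1 point per library and the mean and SD of 4 libraries per strain. The MRL/MpJ libraries lie below all libraries of both other strains for Fzd1, Fzd2, Sfrp2, Sfrp4, Dkk2, Dkk3 and Wif1, and overlap at least 1 of them for Sfrp1, Frzb and Axin2. The share of all genes apart in this way was not counted.

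Other tissue markers differed between the strains at 0-day as well. In C57BL/6 against MRL/MpJ, 6 of 8 fibroblast markers and 7 of 8 cartilage markers were called higher, as were 3 of 7 osteoblast and 3 of 6 macrophage markers, and 8 of 8 muscle markers lower. Summed levels were 32611 to 52441 CPM against 70450 to 85601 CPM for muscle, 14457 to 19658 against 7399 to 9047 CPM for fibroblasts and 2355 to 3311 against 1592 to 2168 CPM for osteoblasts, and overlapped for cartilage and macrophages. In STR/ort against MRL/MpJ, 5 of 8 fibroblast markers and 1 each of the cartilage, osteoblast and macrophage markers were called higher and 1 muscle marker lower, and summed fibroblast levels were 11103 to 13027 CPM against 7399 to 9047 CPM. Their part in the differences of the members was not tested. With 2 factors of unwanted variation estimated from 25 housekeeping genes, the kind of correction the study used with a number of factors its methods do not state, 4 of the 15 calls over the 10 members and 3 comparisons were kept, none of them in C57BL/6 over MRL/MpJ, where Wif1 turned to -0.31 (adjusted p = 0.581, edgeR), and 2 others were gained.

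The question of the injury comparison was which genes changed in the injured knee against the contralateral knee of the same strain and time. Of the 10 members, 1 was called in MRL/MpJ, 5 in C57BL/6 and 4 in STR/ort at 1-day, against 2.02%, 5.60% and 4.31% of all genes. At 1-week 6, 7 and 7 members were called, against 3.13%, 5.82% and 9.21% of all genes, and at 2-weeks 6, 7 and 6, against 1.16%, 2.95% and 4.66%. The receptors and Sfrp1, Sfrp2, Dkk2 and Dkk3 rose in most of these comparisons, while Frzb and Wif1 were called lower in STR/ort alone and Axin2 was called in none of the 9. The median log2 change of the 10 members lay between -0.39 and 0.44 at 1-day, between 0.59 and 1.04 at 1-week and between 0.65 and 0.86 at 2-weeks, and that of all genes between -0.03 and 0.01 over the 9 comparisons.

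**Figure D2:**
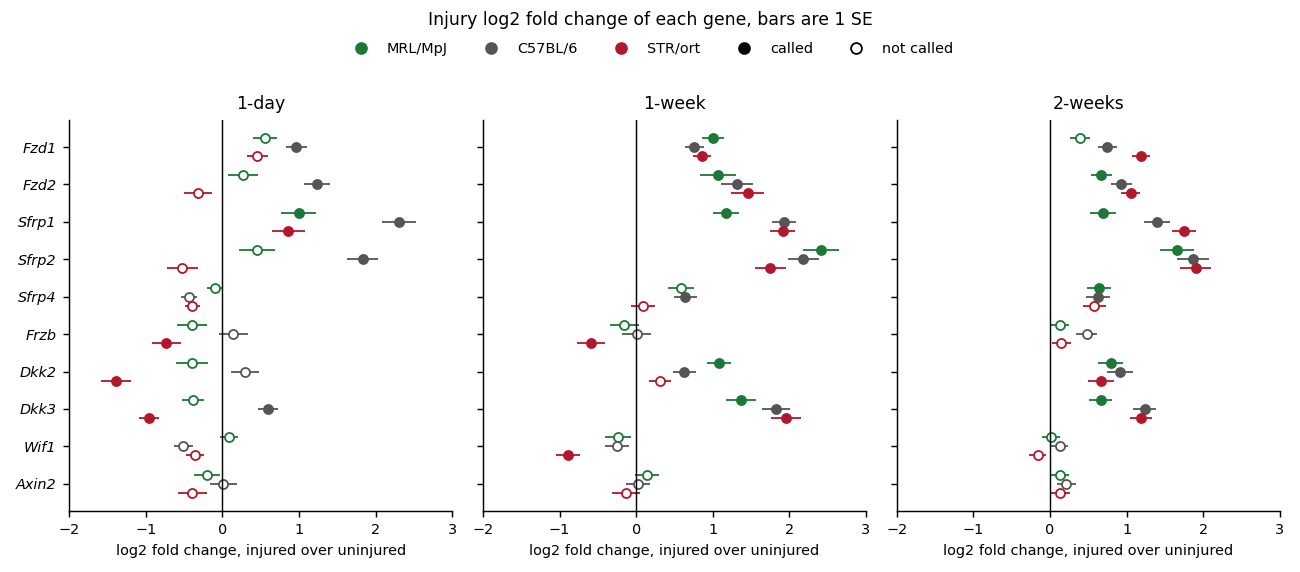
Log2 fold change of injured over uninjured joints (horizontal axis) for the 10 genes at 3 times, by strain, with bars of 1 SE and filled points for calls (edgeR adjusted p below 0.05 and fold change above 1.5). At 1-day the strains spread from -1.38 to 2.30, and at 2-weeks no called point lies below 0.

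Sfrp1, which binds Wnt ligands and can also bind Frizzled receptors, was the only member called in all 9 injury comparisons, higher each time. At 1-day it read 29.8, 32.5, 27.2, 27.4 and 29.5 CPM in injured MRL/MpJ joints against 14.1, 13.1, 15.7, 16.2 and 15.2 CPM in the contralateral ones. In C57BL/6 the injured joints read 76.2, 42.4, 75.8, 106.9 and 56.1 CPM and the contralateral 13.9, 15.6, 11.2, 13.4 and 18.4 CPM. These groups did not overlap, whereas in STR/ort the injured joints (32.5 to 59.95 CPM) overlapped the contralateral ones (12.3 to 36.8 CPM). The log2 fold changes were 0.99 ± 0.22 in MRL/MpJ, 2.30 ± 0.22 in C57BL/6 and 0.86 ± 0.21 in STR/ort (adjusted p = 0.0062, 3.97e-09 and 0.00651, edgeR).

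At 1-week the Sfrp1 change was 1.17 ± 0.17 in MRL/MpJ, 1.93 ± 0.16 in C57BL/6 and 1.91 ± 0.16 in STR/ort on the log2 scale. Injured STR/ort joints then held 85.1 ± 16.9 CPM (SD, n = 5), the highest group mean of the gene. At 2-weeks injured joints exceeded the contralateral joint of the same animal in 5 of 5 pairs in each strain, by 0.69 ± 0.17, 1.40 ± 0.17 and 1.75 ± 0.16. The MRL/MpJ value at 2-weeks was not called without any 1 of 5 libraries (injured replicate 1, 2 or 5, uninjured replicate 2 or 3), with adjusted p up to 0.0858.

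Sfrp2 rose most at 1-week in MRL/MpJ, by 2.41 ± 0.24 on the log2 scale, which is 5.32-fold (adjusted p = 4.08e-08, edgeR). Its injured joints then read 43.4, 43.9, 45.2, 40.1 and 39.5 CPM and the contralateral joints 6.79, 5.13, 10.1 and 10.3 CPM. In C57BL/6 the injured joints read 52.7, 55.2, 58.1, 43.7 and 59.0 CPM against 8.31, 11.3, 12.1, 12.8 and 15.3 CPM, and in STR/ort 128, 97.0, 104, 107 and 124 CPM against 31.03, 23.5, 18.9 and 59.6 CPM. The groups did not overlap in any strain, and the log2 fold changes were 2.18 ± 0.21 in C57BL/6 and 1.75 ± 0.21 in STR/ort. At 2-weeks the changes were 1.66 ± 0.22, 1.87 ± 0.21 and 1.90 ± 0.20 in MRL/MpJ, C57BL/6 and STR/ort, with 5 of 5 pairs higher in each strain.

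The strains parted at 1-day for Sfrp2. Injured C57BL/6 joints read 124, 78.6, 128, 142 and 102 CPM against 43.5, 33.8, 24.0, 23.3 and 38.3 CPM in the contralateral joints, a log2 fold change of 1.83 ± 0.20 (adjusted p = 4.93e-08, edgeR). Injured STR/ort joints read 23.8, 22.4, 28.0, 26.1 and 38.5 CPM and the contralateral joints 23.7, 45.1, 27.4, 62.8 and 38.7 CPM, overlapping, with a log2 fold change of -0.52 ± 0.20 that was not called (adjusted p = 0.102, edgeR). In MRL/MpJ the change was 0.45 ± 0.23 and not called (adjusted p = 0.356, edgeR).

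The receptors Fzd1 and Fzd2 were called higher in all 3 strains at 1-week. Fzd1 rose by 1.00 ± 0.14 in MRL/MpJ, 0.76 ± 0.12 in C57BL/6 and 0.86 ± 0.12 in STR/ort on the log2 scale, and Fzd2 by 1.07 ± 0.24, 1.31 ± 0.21 and 1.46 ± 0.21. Injured and contralateral libraries did not overlap in any of these 6 comparisons. Fzd1 then read 49.9, 61.2, 60.2, 44.5 and 52.3 CPM in injured STR/ort joints against 31.9, 34.1, 25.4 and 26.5 CPM in the contralateral ones. Those contralateral joints already stood above every injured library of the other strains at 1-week, of which the highest read 23.8 CPM. At 1-day both receptors were called only in C57BL/6, Fzd1 by 0.97 ± 0.14 and Fzd2 by 1.24 ± 0.17. Fzd1 had adjusted p below 0.05 but a fold under 1.5 in MRL/MpJ (0.56 ± 0.15, adjusted p = 0.0307, edgeR) and STR/ort (0.46 ± 0.14, adjusted p = 0.03, edgeR), and the MRL/MpJ change was called with 1 factor of unwanted variation (0.63) and with 2 (0.64). At 2-weeks Fzd2 was called in all 3 strains (0.67, 0.93 and 1.05) and Fzd1 in C57BL/6 (0.75 ± 0.13) and STR/ort (1.18 ± 0.12), with 0.39 ± 0.13 in MRL/MpJ (adjusted p = 0.182, edgeR).

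**Figure D3:**
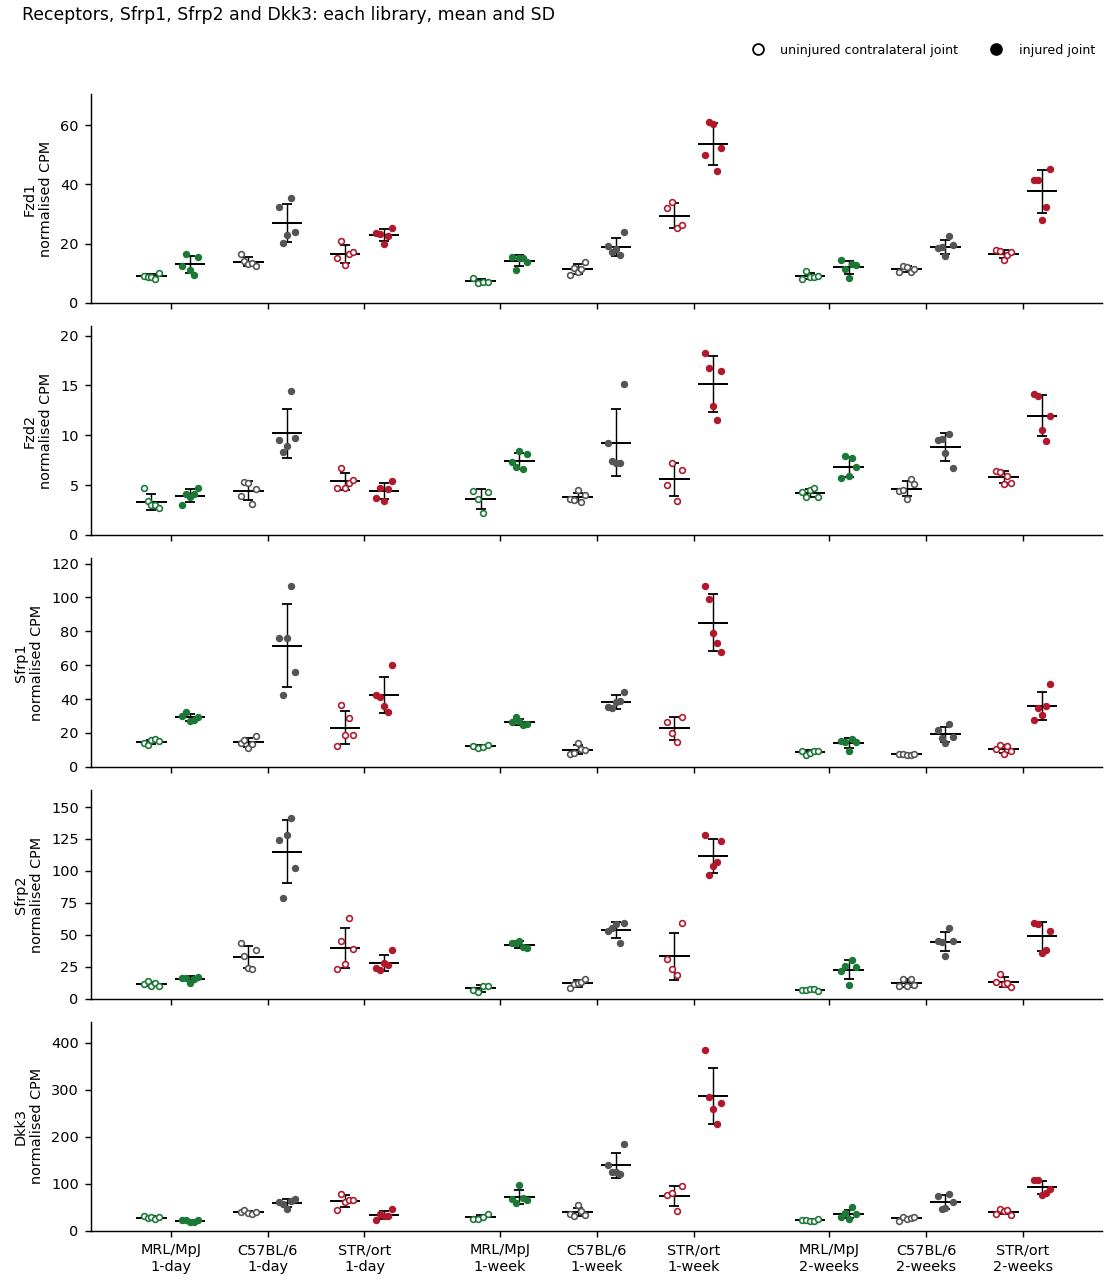
Normalised CPM (vertical axes) of Fzd1, Fzd2, Sfrp1, Sfrp2 and Dkk3 by strain and time, with open points for uninjured contralateral and filled points for injured joints, 1 point per library, and the mean and SD of 4 or 5 libraries. At 1-week the injured libraries of all 5 genes lie above the contralateral ones of the same strain, and the injured STR/ort mean of Dkk3 is 286 CPM against 73.5 CPM.

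Against the contralateral joint, Dkk3 changed in opposite directions in different strains at 1-day and rose in all 3 afterwards. At 1-day it read 23.6, 34.6, 30.2, 30.3 and 46.2 CPM in injured STR/ort joints against 44.1, 78.9, 61.7, 65.9 and 66.3 CPM, a log2 fold change of -0.96 ± 0.13 (adjusted p = 3.88e-06, edgeR). One injured library lay just above the lowest contralateral one. In C57BL/6 it read 61.9, 56.0, 46.1, 63.9 and 67.6 CPM against 39.7, 43.1, 38.3, 35.9 and 39.7 CPM, without overlap and with a log2 fold change of 0.59 ± 0.13 (adjusted p = 0.00126, edgeR). The fold of that change was 1.51, and it fell to 0.54 to 0.58 on the log2 scale, below the fold minimum, without any 1 of 14 of the 30 libraries, the lowest value being without injured C57BL/6 replicate 5. At 0-day C57BL/6 joints had read 54.8 to 76.2 CPM, a range that overlapped the injured joints and lay above every contralateral one. Whether the difference lay in the injured or the contralateral joints was not tested. In MRL/MpJ the 5 injured libraries (19.3 to 22.7 CPM) lay below the 5 contralateral ones (24.5 to 30.7 CPM), with a log2 fold change of -0.38 ± 0.14 that was not called (adjusted p = 0.132, edgeR).

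At 1-week Dkk3 read 385, 285, 259, 227 and 272.5 CPM in injured STR/ort joints against 76.1, 80.2, 42.8 and 95.0 CPM in the contralateral ones. In C57BL/6 it read 140, 126, 126, 120.5 and 184 CPM against 36.5, 31.7, 54.8, 42.3 and 33.9 CPM, and in MRL/MpJ 66.7, 58.5, 97.8, 69.5 and 65.6 CPM against 25.8, 24.8, 28.5 and 34.5 CPM. No groups overlapped, and the log2 fold changes were 1.96 ± 0.19, 1.82 ± 0.18 and 1.37 ± 0.20 in that order. At 2-weeks they were 1.19 ± 0.14, 1.24 ± 0.15 and 0.66 ± 0.15, higher in 5 of 5 pairs each. The MRL/MpJ call at 2-weeks was lost without injured replicate 4 (0.53).

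Dkk2, an antagonist that binds Lrp5 and Lrp6, was lower in injured than in contralateral joints in STR/ort at 1-day and higher in other comparisons. Injured STR/ort joints read 7.01, 10.47, 8.001, 12.4 and 13.6 CPM at 1-day and contralateral ones 27.4, 31.6, 18.3, 33.0 and 22 CPM. The groups did not overlap, and the log2 fold change was -1.38 ± 0.19, a 2.61-fold lower level (adjusted p = 7.72e-06, edgeR). At 1-week Dkk2 was higher in injured than in contralateral joints by 1.08 ± 0.16 in MRL/MpJ and by 0.63 ± 0.15 in C57BL/6. In MRL/MpJ it read 22.3 ± 2.12 CPM (SD, n = 5) against 10.8 ± 0.383 CPM (SD, n = 4). The C57BL/6 value fell below the fold minimum without any 1 of 4 libraries (injured replicate 2 or 3, uninjured replicate 1 or 4), with 0.54 to 0.58, and with 2 factors of unwanted variation (0.57). Mean Dkk2 was 15.9 CPM in these injured C57BL/6 joints, 10.5 CPM in the contralateral ones and 20.5 CPM at 0-day. In STR/ort the 1-week change was 0.31 ± 0.14 and not called (adjusted p = 0.127, edgeR). At 2-weeks it was called higher in all 3 strains, by 0.79, 0.91 and 0.67 in MRL/MpJ, C57BL/6 and STR/ort, the last being lost without uninjured STR/ort replicate 5 (0.58).

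Sfrp4, a Frizzled-related protein like Sfrp1 and Sfrp2, was called higher in 3 comparisons and lower in none. Over the contralateral joints it was higher by 0.64 ± 0.15 in C57BL/6 at 1-week (adjusted p = 0.00404, edgeR), by 0.64 ± 0.16 in MRL/MpJ and by 0.62 ± 0.16 in C57BL/6 at 2-weeks. These calls were close to the thresholds and were lost without any 1 of 2 libraries (C57BL/6 injured replicate 4 or uninjured replicate 2 at 1-week, with 0.57 to 0.58, and also with 1 factor of unwanted variation), of 6 libraries (MRL/MpJ at 2-weeks, adjusted p up to 0.0928) and of 2 libraries (C57BL/6 injured replicate 1 or 4 at 2-weeks, with 0.52 to 0.54). In C57BL/6 Sfrp4 averaged 64.7 CPM in injured joints at 1-week, 42.2 CPM in contralateral ones and 65.2 CPM at 0-day. At 1-day its log2 fold change was below 0 in C57BL/6 (-0.44 ± 0.10, adjusted p = 0.00212, edgeR) and STR/ort (-0.39 ± 0.10, adjusted p = 0.00849, edgeR), both under the fold minimum and not called.

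Frzb, a Wnt-binding antagonist of cartilage, was called lower only in STR/ort. At 1-day it read 19.99, 19.1, 17.4, 22.2 and 27.6 CPM in injured and 34.4, 38.8, 22.9, 30.9 and 46.6 CPM in contralateral joints, with 1 injured library inside the contralateral range. The log2 fold change was -0.73 ± 0.18 (adjusted p = 0.00841, edgeR), and -0.49 with 2 factors of unwanted variation, which ends the call. At 1-week it was -0.59 ± 0.18 (adjusted p = 0.0195, edgeR), at the fold minimum, and was lost without any 1 of 10 of the 28 libraries (-0.57 to -0.50, the last without uninjured STR/ort replicate 4) and with DESeq2, RLE size factors or factors of unwanted variation.

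Wif1, the most abundant member per kilobase before injury, was called lower only in STR/ort at 1-week. It then read 111, 116, 76.1, 111 and 142 CPM in injured joints and 242, 170, 176 and 232 CPM in contralateral ones. The groups did not overlap, and the log2 fold change was -0.89 ± 0.16, a 1.85-fold lower level (adjusted p = 0.000138, edgeR). At 0-day the strain had read 89.0 to 124 CPM, a range within that of the injured joints and below every contralateral one. Without pairing by replicate number, the 1-week response of STR/ort was not called as different from that of MRL/MpJ (-0.65 ± 0.23, adjusted p = 0.184, edgeR) or C57BL/6 (-0.64 ± 0.22, adjusted p = 0.219, edgeR). With the number as a block it was called against both (-0.76 ± 0.15, adjusted p = 0.00938, and -0.73 ± 0.14, adjusted p = 0.0089, edgeR). At 1-day the log2 fold change of Wif1 was -0.51 ± 0.12 in C57BL/6 (adjusted p = 0.00258, edgeR) and -0.36 ± 0.12 in STR/ort (adjusted p = 0.047, edgeR), both under the fold minimum. No 2-weeks change was called.

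Axin2, whose transcription is a common readout of beta-catenin signalling, was not called in any of the 9 injury comparisons by edgeR. Its log2 fold changes ran from -0.39 ± 0.18 (STR/ort at 1-day, adjusted p = 0.203, edgeR) to 0.21 ± 0.12 (C57BL/6 at 2-weeks, adjusted p = 0.315, edgeR). At 1-day its STR/ort libraries read 2.14, 2.87, 2.83, 3.73 and 4.69 CPM in injured and 3.24, 5.29, 5.14, 3.84 and 3.71 CPM in contralateral joints, which overlapped. With 24 to 168 counts per library, changes of this size were not separated from the spread at this depth.

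**Figure D4:**
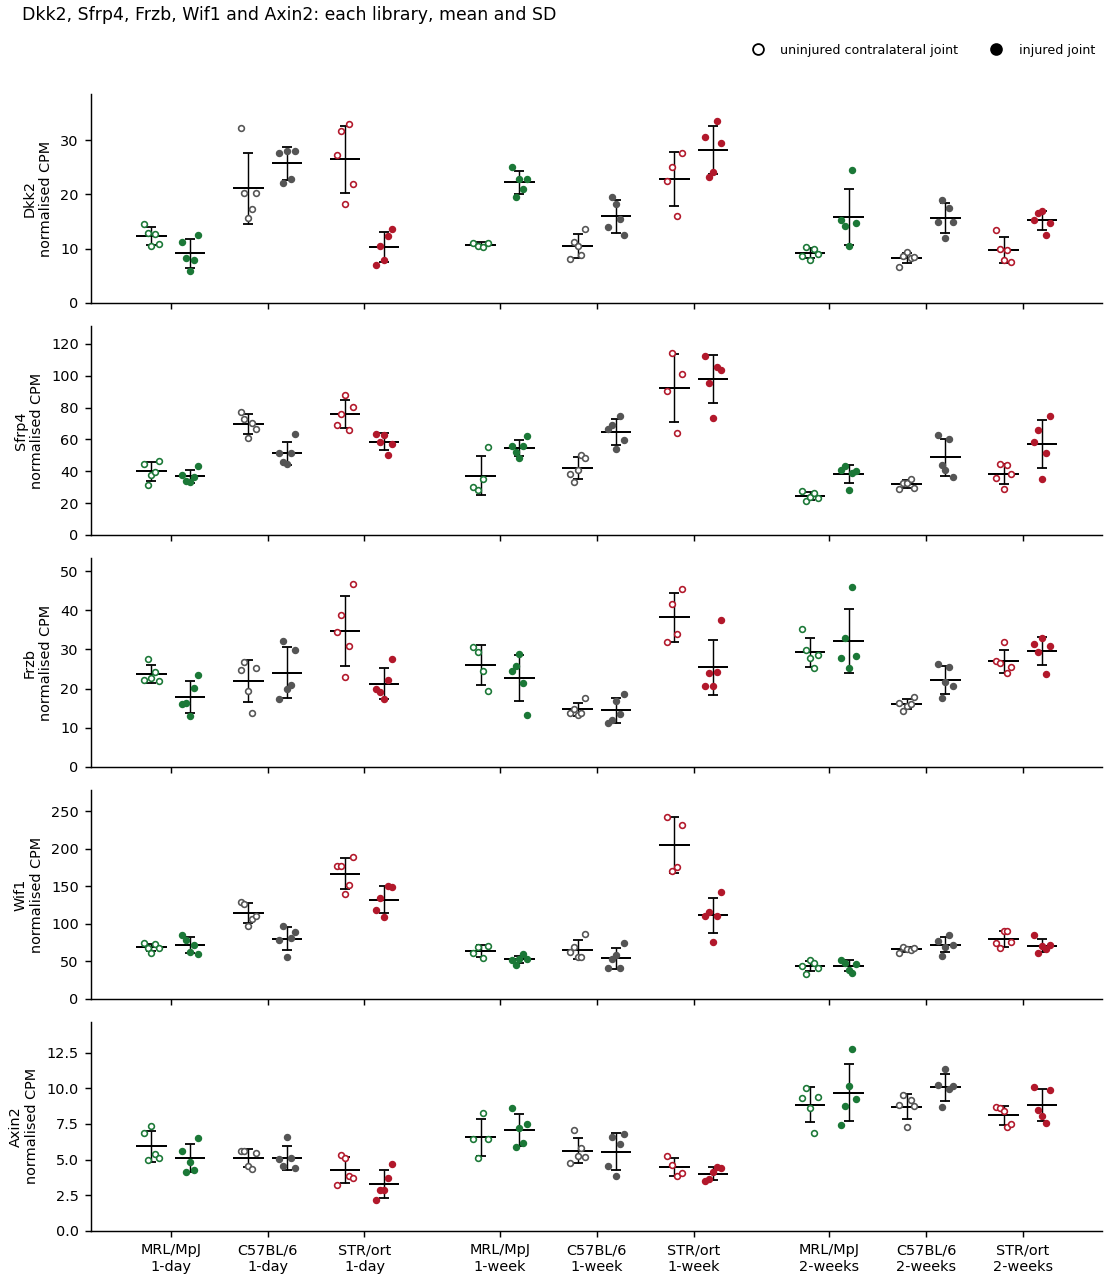
Normalised CPM (vertical axes) of Dkk2, Sfrp4, Frzb, Wif1 and Axin2 by strain and time, with open points for uninjured contralateral and filled points for injured joints, 1 point per library, and the mean and SD of 4 or 5 libraries. In STR/ort the injured libraries lie below the contralateral ones for Dkk2 and Sfrp4 at 1-day and Wif1 at 1-week, while those of Axin2 overlap in all 9 comparisons.

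Fibroblast markers rose with injury at 1-week and 2-weeks, as the receptors, Sfrp1, Sfrp2 and Dkk3 did in most comparisons. At 1-week 6 of 8 fibroblast markers were called higher in MRL/MpJ, 7 of 8 in C57BL/6 and 5 of 8 in STR/ort. Their summed level was 13266 to 15799 CPM in injured against 6610 to 10607 CPM in contralateral MRL/MpJ joints, 15025 to 22771 against 6386 to 9700 CPM in C57BL/6, and 32216 to 52975 against 13764 to 24782 CPM in STR/ort. At 2-weeks 4, 4 and 5 of the 8 were called higher, and at 1-day 1, 3 and 0. In STR/ort at 2-weeks 3 of 8 cartilage, 1 of 5 endothelial and 1 of 6 macrophage markers were higher as well, with cartilage sums of 4071 to 5951 CPM against 2526 to 3562 CPM and endothelial sums of 356 to 382 CPM against 297 to 320 CPM. In C57BL/6, 2 macrophage markers at 1-day, 2 cartilage and 1 macrophage marker at 1-week and 1 cartilage marker at 2-weeks were also called higher, and in MRL/MpJ 1 macrophage marker at 1-day and at 1-week. In C57BL/6, 1 cartilage marker was lower and muscle markers split 1 higher and 1 lower at 1-day, and 2 muscle and 1 osteoblast marker were lower at 1-week. In STR/ort at 1-day, where Sfrp1 rose, the fibroblast sums overlapped, at 13663 to 16402 CPM in injured and 13932 to 19026 CPM in contralateral joints. Where Dkk2, Dkk3 and Frzb fell in STR/ort at 1-day, 5 of 8 muscle markers fell as well, from 30291 to 52503 CPM in sum in contralateral joints to 16282 to 41175 CPM, 1 of 6 macrophage markers rose, and 0 of 8 cartilage markers were called. Where Wif1 fell in STR/ort at 1-week, 3 of 7 osteoblast and osteocyte markers and 6 of 8 muscle markers were called lower, and 2 cartilage and 1 endothelial marker higher. The part of these cell types in the changes of the members was not tested.

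Whether the injury response itself differed between strains was tested as an interaction. At 1-day 5 members responded differently in STR/ort and C57BL/6, against 2.66% of all genes called. The log2 difference between the responses was -2.35 ± 0.28 for Sfrp2 (adjusted p = 3.26e-06, edgeR), -1.68 ± 0.27 for Dkk2, -1.56 ± 0.25 for Fzd2, -1.56 ± 0.18 for Dkk3 and -1.44 ± 0.30 for Sfrp1, lower in STR/ort each time. Frzb had -0.87 ± 0.27 and was not called (adjusted p = 0.0569, edgeR), but it was called with DESeq2, with 1 or 2 factors of unwanted variation and without any 1 of 6 libraries. The response of C57BL/6 was also above that of MRL/MpJ for Sfrp2 (1.38 ± 0.31, adjusted p = 0.0339, edgeR) and Dkk3 (0.98 ± 0.19, adjusted p = 0.0123, edgeR), against 0.318% of all genes. For Dkk3 the change was a rise in C57BL/6 and a fall in MRL/MpJ, the fall not being called. The Sfrp2 difference was not called without any 1 of 9 libraries of the 2 strains, with adjusted p up to 0.0861 (without injured MRL/MpJ replicate 3). Sfrp1 missed the call with a difference of 1.31 ± 0.31 (adjusted p = 0.0516, edgeR) and was called with DESeq2, RLE size factors, edgeR's own filter on low counts, 1 or 2 factors of unwanted variation and without any 1 of 7 libraries. Between STR/ort and MRL/MpJ no member was called at 1-day by edgeR, against 0.162% of all genes, with 5 members at an unadjusted p below 0.05 and 0 called by DESeq2. The split of the 7 calls at 1-day was 2 higher and 5 lower, and 4 higher and 6 lower with DESeq2 and with 2 factors of unwanted variation, the 7 being kept in both. In STR/ort against C57BL/6, 4 of 8 fibroblast and 2 of 6 macrophage markers also responded less, and in C57BL/6 against MRL/MpJ 1 fibroblast and 1 macrophage marker responded more. Their part in these differences was not tested, nor was that of changes in the contralateral joints. Mean Sfrp2 was 21.4 CPM in STR/ort at 0-day, and 39.5 CPM in contralateral and 27.8 CPM in injured joints at 1-day. In C57BL/6 these means were 32.7, 32.6 and 115 CPM.

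At 1-week no member was called in any of the 3 interaction comparisons by edgeR, against 0.884% of all genes for STR/ort minus MRL/MpJ, 0.491% for STR/ort minus C57BL/6 and 0% for C57BL/6 minus MRL/MpJ. At an unadjusted p below 0.05 there were 6, 3 and 2 members, and DESeq2 called 1, 0 and 0. The member it called was Dkk2 in STR/ort minus MRL/MpJ (edgeR log2 difference -0.77 ± 0.21, adjusted p = 0.0687). With the replicate number as a block, 6 values were called. For STR/ort minus MRL/MpJ they were Wif1 and Dkk2 (both below 0), Frzb (-0.77 ± 0.15 against -0.43 ± 0.26 without the block) and Sfrp1 (0.81 ± 0.21 against 0.74 ± 0.23), and for STR/ort minus C57BL/6 they were Wif1 and Frzb (-0.77 ± 0.15). In these joints every same-numbered pair correlated above 0.1 in STR/ort, but not every pair did in the other strains. For C57BL/6 minus MRL/MpJ, 505 of all genes had an unadjusted p below 0.05 and DESeq2 called 0.

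At 2-weeks 2 members responded more strongly in STR/ort than in MRL/MpJ, against 0.451% of all genes. Sfrp1 had a log2 difference of 1.06 ± 0.23 (adjusted p = 0.0256, edgeR) and Fzd1 of 0.79 ± 0.18 (adjusted p = 0.0258, edgeR). In injured STR/ort joints Fzd1 read 41.3, 41.5, 27.9, 32.4 and 45.2 CPM against 17.8, 17.6, 14.5, 16.1 and 17.1 CPM, and in MRL/MpJ 14.6, 11.5, 8.59, 13.0 and 12.7 CPM against 8.05, 10.9, 8.91, 8.88 and 9.15 CPM. The groups were apart in STR/ort and overlapped in MRL/MpJ. Sfrp1 was lost without any 1 of 7 libraries (adjusted p up to 0.11) and Fzd1 without any 1 of 9 (up to 0.0729), the highest p being without uninjured MRL/MpJ replicate 1 for both. With edgeR's own filter on low counts the adjusted p were 0.0577 and 0.0646. No member was called for STR/ort minus C57BL/6 (against 0.0462% of all genes, 1 member at an unadjusted p below 0.05) or for C57BL/6 minus MRL/MpJ (against 0%, 2 members), and DESeq2 called 0 members in both. In the latter comparison 984 of all genes had an unadjusted p below 0.05 and DESeq2 called 2.

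Within injured joints the strains differed in a way that changed with time. At 1-day C57BL/6 stood above MRL/MpJ in 6 members (Fzd1, Fzd2, Sfrp1, Sfrp2, Dkk2 and Dkk3), against 16.3% of all genes, with a log2 difference of 2.90 ± 0.21 for Sfrp2. STR/ort stood below C57BL/6 in 6 members, among them Sfrp2 (-2.06 ± 0.20), Dkk2 (-1.33 ± 0.20) and Fzd2 (-1.25 ± 0.17), and above it in Wif1 (0.71 ± 0.12), against 12.4%. STR/ort stood above MRL/MpJ in 5 members and below it in Axin2 (-0.63 ± 0.18), against 20.3%. The split at 1-day was 12 higher and 7 lower, and 11 and 4 with 1 or 2 factors of unwanted variation, which ended the calls of Wif1 and Axin2 against both strains (Axin2 at -0.11 against MRL/MpJ with 1 factor) and of Sfrp1 in STR/ort against C57BL/6, and added that of Sfrp1 in STR/ort over MRL/MpJ. Axin2 was also lost against MRL/MpJ without injured MRL/MpJ replicate 5 (-0.52) or injured STR/ort replicate 1 (-0.53), and against C57BL/6 without injured C57BL/6 replicate 3 (-0.57) or injured STR/ort replicate 1 (-0.54). Sfrp1 against C57BL/6 was lost without injured C57BL/6 replicate 4 (-0.57) and Dkk3 against MRL/MpJ without injured STR/ort replicate 5 (0.51). At 1-week the order of STR/ort and C57BL/6 was turned: 8 members were higher in STR/ort and 0 lower, against 25.1% of all genes, among them Fzd1 (1.49 ± 0.11), Sfrp1 (1.13 ± 0.14), Sfrp2 (1.04 ± 0.18) and Dkk3 (1.02 ± 0.17). Against MRL/MpJ, 7 members were higher in injured STR/ort joints and Axin2 was lower (-0.83 ± 0.16), against 29.5%, whereas C57BL/6 and MRL/MpJ differed in Dkk3 (0.95 ± 0.17) and Frzb (-0.66 ± 0.18), against 9.47%, with Frzb lost without injured C57BL/6 replicate 1 (-0.57) or injured MRL/MpJ replicate 3 (-0.55). At 2-weeks 7 members were higher in STR/ort than in MRL/MpJ (18.9% of all genes), 4 higher in C57BL/6 than in MRL/MpJ (11.5%) and 2, Fzd1 (0.98 ± 0.11) and Sfrp1 (0.89 ± 0.15), higher in STR/ort than in C57BL/6 (10.4%). At 2-weeks Sfrp4 in STR/ort over MRL/MpJ was lost without any 1 of 6 libraries (0.47 to 0.57, lowest without injured STR/ort replicate 5) and with DESeq2, RLE size factors, edgeR's own filter on low counts or 1 factor of unwanted variation, and Fzd1 in C57BL/6 over MRL/MpJ without injured MRL/MpJ replicate 3 (0.56). Over the 3 comparisons at 1-week, 12 of the 18 calls were kept with 1 factor of unwanted variation and 8 with 2, which gained 1 other. Against C57BL/6, Wif1 and Fzd2 were lost with either number of factors, and Sfrp2 (0.36, adjusted p = 0.457, edgeR) and Frzb with 2. Against MRL/MpJ, Axin2 (-0.44 with 1 factor and -0.42 with 2), Wif1, Sfrp4 and Fzd2 were lost with either number and Sfrp2 with 2 (0.18). Frzb in C57BL/6 against MRL/MpJ was lost with 2.

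Markers of cell types differed between injured joints of the strains too. At 1-week 7 of 8 fibroblast, 8 of 8 cartilage and 4 of 7 osteoblast markers were higher in STR/ort than in C57BL/6, with 1 endothelial and 1 macrophage marker, and 8 of 8 muscle markers were lower. Against MRL/MpJ these were 7, 7 and 3, with 2 endothelial and 1 macrophage marker, and 8 of 8 muscle markers lower. Fibroblast sums were 32216 to 52975 CPM in STR/ort, 15025 to 22771 CPM in C57BL/6 and 13266 to 15799 CPM in MRL/MpJ, and muscle sums 13846 to 30469, 27696 to 54549 and 43290 to 72080 CPM. At 1-day 5 of 8 fibroblast, 3 of 8 cartilage and 5 of 6 macrophage markers were higher in C57BL/6 than in MRL/MpJ and 1 of 8 muscle markers was lower, and in STR/ort against C57BL/6 1 fibroblast, 2 macrophage and 6 muscle markers were lower and 4 osteoblast, 1 cartilage and 1 macrophage marker higher. In STR/ort against MRL/MpJ at 1-day 4 fibroblast, 6 cartilage, 4 osteoblast, 2 macrophage and 1 endothelial marker were higher and 8 muscle markers lower. At 2-weeks 18 of the 42 markers were higher in STR/ort than in MRL/MpJ, 13 higher in C57BL/6 than in MRL/MpJ, and 5 higher and 1 lower in STR/ort than in C57BL/6. The part of these cell types in the differences of the members was not tested.

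In uninjured contralateral joints, 9 of the 10 members were higher in STR/ort than in MRL/MpJ at 1-day, all but Axin2, against 22.6% of all genes. Wif1 read 167 ± 20.4 CPM (SD, n = 5) against 68.5 ± 5.15 CPM, a log2 difference of 1.33 ± 0.12, and Sfrp2 differed by 1.82 ± 0.22. Frzb (0.59 ± 0.18) was at the fold minimum and was lost without any 1 of 13 of the 30 libraries (0.47 to 0.58, lowest without uninjured STR/ort replicate 5), with DESeq2, RLE size factors and 1 or 2 factors of unwanted variation (0.36 and 0.22). Fzd2 was lost with 1 or 2 factors, and Sfrp1 without uninjured STR/ort replicate 2 (0.44) or 4 (0.56). At 1-day 3 members were higher in STR/ort than in C57BL/6 (Sfrp1, Frzb and Dkk3, against 10.5%) and 5 higher in C57BL/6 than in MRL/MpJ (against 14.8%). Against C57BL/6, Sfrp1 was lost without any 1 of 4 libraries (uninjured C57BL/6 replicate 3 or 4, uninjured STR/ort replicate 2 or 4, with 0.44 to 0.64), and Frzb without uninjured C57BL/6 replicate 4 (0.54) or uninjured STR/ort replicate 5 (0.56) and with 1 factor. At 1-week 7 members were higher in STR/ort than in MRL/MpJ (24.4%) and 8 higher than in C57BL/6 (22.2%), with Fzd1 at 2.03 ± 0.14 and 1.39 ± 0.13 and Wif1 at 1.71 ± 0.18 and 1.67 ± 0.16 on the log2 scale. With 2 factors of unwanted variation, Wif1 over MRL/MpJ was lost (0.84, adjusted p = 0.143, edgeR), as were Sfrp1, Sfrp2 and Dkk2 over MRL/MpJ and Sfrp2 over C57BL/6. C57BL/6 and MRL/MpJ then differed only in Fzd1 (0.64 ± 0.15) and Frzb (-0.82 ± 0.19), against 8.53%, with Fzd1 lost without uninjured C57BL/6 replicate 5 (0.56) and both lost with 2 factors (adjusted p = 0.0555 and 0.0777, edgeR). At 2-weeks 5 members were higher in STR/ort than in MRL/MpJ (13.8%), Frzb and Dkk3 were higher than in C57BL/6 (9.78%), and C57BL/6 exceeded MRL/MpJ in Sfrp2 and Wif1 and stood below it in Frzb (-0.87 ± 0.13), against 9.83%. Of these 2-weeks calls, Sfrp4 over MRL/MpJ was lost without uninjured STR/ort replicate 2 (0.58), Dkk3 over C57BL/6 without any 1 of 3 libraries (uninjured C57BL/6 replicate 1, uninjured STR/ort replicate 2 or 4, with 0.57 to 0.58), Wif1 without any 1 of 3 (uninjured C57BL/6 replicate 2, uninjured MRL/MpJ replicate 2 or 5, with 0.52 to 0.58) and Sfrp2 without uninjured C57BL/6 replicate 2 (0.69) or 4 (0.66). Dkk3 over C57BL/6 (0.56 and 0.52) and Wif1 over MRL/MpJ in C57BL/6 (0.49 and 0.57) were also lost with 1 and with 2 factors, and Frzb over C57BL/6 with 2 (0.52). Of the 17 calls at 1-week, 10 were kept with 2 factors of unwanted variation.

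The markers of these uninjured joints differed as well. In STR/ort over MRL/MpJ 7 of 8 fibroblast, 7 of 8 cartilage, 7 of 7 osteoblast and 2 of 6 macrophage markers were called higher at both 1-day and 1-week, and 6 and 8 of 8 muscle markers lower. Muscle sums were 30291 to 52503 CPM in STR/ort against 59914 to 77969 CPM in MRL/MpJ at 1-day, and 27761 to 53595 against 60348 to 88585 CPM at 1-week. In STR/ort over C57BL/6 at 1-week 7 fibroblast, 8 cartilage, 7 osteoblast and 1 macrophage marker were higher and 3 muscle and 1 endothelial marker lower, and at 1-day 4 fibroblast, 1 cartilage and 1 macrophage marker were higher. In C57BL/6 over MRL/MpJ 20 of the 42 markers were higher and 2 lower at 1-day, and 1 and 1 at 1-week. At 2-weeks 17 were higher and 1 lower in STR/ort than in MRL/MpJ, 6 higher and 3 lower than in C57BL/6, and 10 higher in C57BL/6 than in MRL/MpJ. The part of these cell types was not tested.

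The contralateral joints of batch 1 were compared with 0-day joints of the same strain, since they are the control of the injury comparisons at 1-day and 1-week. In MRL/MpJ no member was called at either time by edgeR, against 0.0867% of all genes at 1-day and 0% at 1-week, with 1 and 0 members at an unadjusted p below 0.05 and 0 called by DESeq2. At 1-week 953 of all genes had an unadjusted p below 0.05 in MRL/MpJ, and DESeq2 called 0. In C57BL/6 no member was called at 1-day (against 0.0635% of all genes, 2 members at an unadjusted p below 0.05, 1 called by DESeq2), where Dkk3 stood at -0.68 ± 0.16 (adjusted p = 0.112, edgeR). At 1-week 7 members were called lower in contralateral C57BL/6 joints than at 0-day, against 5.69% of all genes.

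Sfrp2 fell most in contralateral C57BL/6 joints, from 32.6, 32.7, 23.6 and 41.9 CPM at 0-day to 8.31, 11.3, 12.1, 12.8 and 15.3 CPM at 1-week, a log2 change of -1.47 ± 0.26 (adjusted p = 0.000121, edgeR). The 1-week libraries all lay below those of 0-day. Dkk2 fell by 0.99 ± 0.18 on the log2 scale, Wif1 by 0.85 ± 0.13, Frzb by 0.72 ± 0.17, Dkk3 by 0.66 ± 0.16, Fzd2 by 0.65 ± 0.19 and Sfrp4 by 0.65 ± 0.16. Without 0-day replicate 4, Fzd2 (-0.62), Sfrp4 (-0.58) and Dkk3 (-0.55) were not called, nor was Fzd2 without 0-day replicate 2 (-0.60) or Sfrp4 without contralateral replicate 2 (-0.58). In the same comparison 8 of 8 cartilage, 6 of 8 fibroblast and 6 of 7 osteoblast markers were called lower, with summed cartilage levels of 1468 to 3515 CPM against 2706 to 7118 CPM. Their part in the fall of the members was not tested. In C57BL/6, Sfrp2 thus read 43.7 to 59.0 CPM in injured joints at 1-week, 23.6 to 41.9 CPM at 0-day and 8.31 to 15.3 CPM in contralateral joints.

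In STR/ort the contralateral joints moved the other way. At 1-day Sfrp1 (0.68 ± 0.22), Sfrp2 (0.91 ± 0.25) and Wif1 (0.61 ± 0.13) were higher than at 0-day, against 10.0% of all genes, and at 1-week Fzd1 (0.89 ± 0.13), Sfrp1 (0.65 ± 0.23), Sfrp4 (0.67 ± 0.16) and Wif1 (0.90 ± 0.14), against 13.8%. Wif1 read 124, 119, 116 and 89.0 CPM at 0-day, 177, 176, 140, 151 and 189 CPM at 1-day and 242, 170, 176 and 232 CPM at 1-week, so both later groups lay above every 0-day library. Fzd1 read 16.4, 13.6, 19.8 and 14.9 CPM at 0-day and 31.9, 34.1, 25.4 and 26.5 CPM at 1-week, also without overlap. Muscle markers were lower in the same joints, 8 of 8 at both times, with sums of 30291 to 52503 CPM at 1-day and 27761 to 53595 CPM at 1-week against 74267 to 84137 CPM at 0-day, and 1 of 8 fibroblast and 2 of 6 macrophage markers were higher at 1-day. At 1-week 6 of 8 fibroblast, 3 of 6 macrophage, 3 of 7 osteoblast and 1 of 8 cartilage markers were higher, with macrophage sums of 2645 to 3266 CPM against 1667 to 2356 CPM and osteoblast sums of 2896 to 4262 CPM against 2085 to 2914 CPM. Their part in the rise of the members was not tested.

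With 1 or 2 factors of unwanted variation in the fit, the STR/ort calls for Sfrp1 and Wif1 at both times, Sfrp2 at 1-day and Sfrp4 at 1-week were lost, and Fzd1 at 1-week was called with 1 and with 2 factors. Over the 3 strains the 1-week split of 4 higher and 7 lower became 1 higher and 7 lower with 1 factor, and the 1-day split of 3 higher and 0 lower became 0 and 0 with 1 factor, 0 and 1 with 2, and 2 and 1 with DESeq2. Without 0-day STR/ort replicate 4, 1 of the 3 calls at 1-day was left, since Sfrp1 (0.61, adjusted p = 0.0641, edgeR) and Wif1 (0.51) were not called. Sfrp1 was also lost at 1-day without 0-day replicate 2 or contralateral replicate 2 and at 1-week without any 1 of 5 libraries (0.49 to 0.64), Wif1 at 1-day without contralateral replicate 1 or 5 and with DESeq2 or RLE size factors (0.58 each), and Sfrp4 at 1-week without 0-day replicate 4 or contralateral replicate 2 (0.51 and 0.55).

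**Figure D5:**
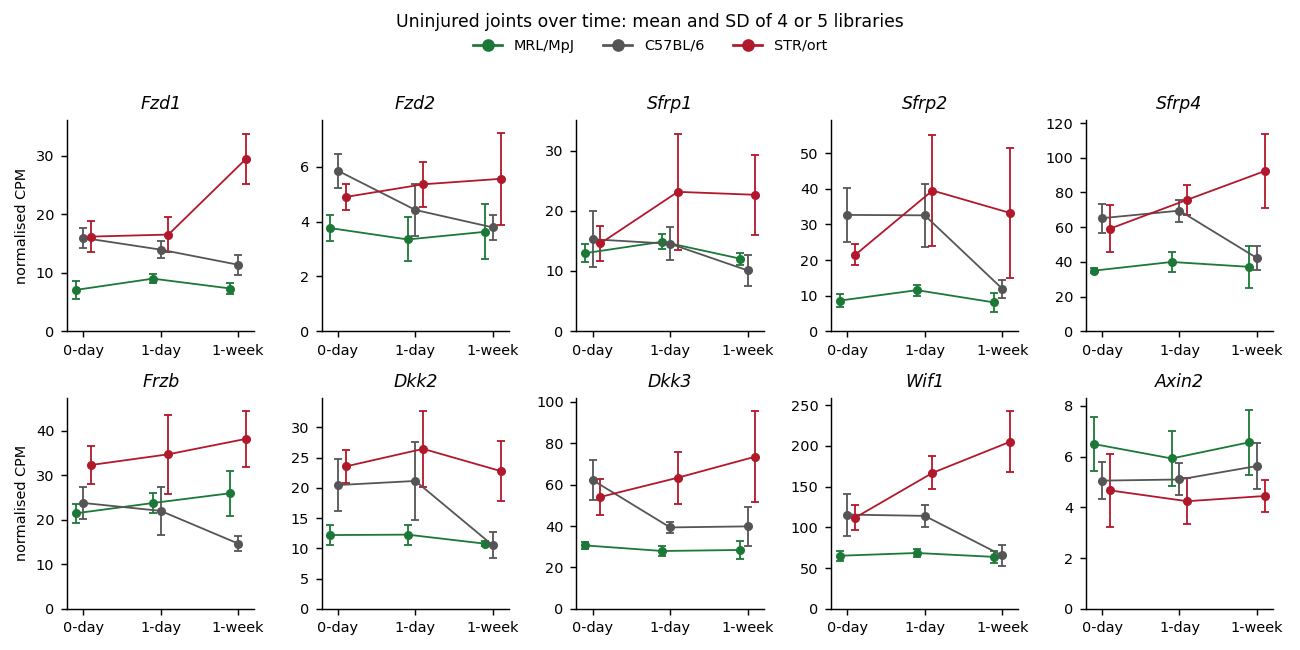
Mean and SD of normalised CPM (vertical axes) of the 10 genes in uninjured joints of batch 1 at 0-day, 1-day and 1-week, with 4 or 5 libraries per strain and time. At 1-week Wif1 stands at 205 CPM in STR/ort and 65.4 CPM in C57BL/6 after 112 and 116 CPM at 0-day, while the 3 MRL/MpJ means lie between 63.6 and 68.5 CPM.

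Of 65 other genes of the pathway, most were not called after injury. At 1-day 2 were called higher in MRL/MpJ, 3 in C57BL/6 and 1 in STR/ort, and 0, 0 and 5 lower, against 2.02%, 5.60% and 4.31% of all genes called in either direction. Wisp2, a secreted matricellular protein, was called higher in all 3 strains at each time, with log2 fold changes of 0.79, 1.53 and 0.75 at 1-day, 1.09, 1.37 and 1.01 at 1-week and 0.68, 0.92 and 1.39 at 2-weeks in MRL/MpJ, C57BL/6 and STR/ort. The ligand gene Wnt2 was higher at 1-day in MRL/MpJ (2.31 ± 0.65) and C57BL/6 (1.43 ± 0.45), and Ror2, a Wnt5a receptor, in C57BL/6 (1.07 ± 0.22). The agonist gene Rspo2, which strengthens Wnt signals by sparing Frizzled receptors from turnover, fell by 1.62 ± 0.19 at 1-day in STR/ort, as did the ligand Wnt11 (by 0.94 ± 0.20), the feedback inhibitor Nkd1 (by 0.71 ± 0.17) and the receptor Fzd10 (by 2.09 ± 0.58).

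At 1-week 3, 7 and 11 of the 65 were called higher in MRL/MpJ, C57BL/6 and STR/ort and 1, 0 and 4 lower, against 3.13%, 5.82% and 9.21% of all genes. The receptor Fzd6 was higher in all 3 strains (0.80, 0.92 and 1.26), and Nkd1 (0.93 and 1.27) and Ror2 (1.16 and 1.71) in C57BL/6 and STR/ort. Lower in STR/ort were Sost (by 0.99 ± 0.22), the osteocyte antagonist that binds Lrp5 and Lrp6, Dkk1 (by 0.69 ± 0.18), Sfrp5 (by 0.94 ± 0.26) and Rspo3 (by 0.61 ± 0.19). Of the 10 other inhibitors, 3 were called lower and 1 higher in these joints. At 2-weeks 2, 6 and 7 were called higher and 0, 0 and 1 lower, against 1.16%, 2.95% and 4.66% of all genes, the last being Sost in STR/ort (by 0.59 ± 0.14). Rspo2 was then higher in all 3 strains (1.00, 1.33 and 1.05), Fzd6 in C57BL/6 (0.67) and STR/ort (0.92) and the ligand Wnt16 in C57BL/6 (0.98) and STR/ort (0.80). Before injury 14 of the 65 were higher and 0 lower in C57BL/6 than in MRL/MpJ, and 7 higher and 2 lower in STR/ort than in MRL/MpJ, against 15.9% and 14.8% of all genes called in either direction.

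Over the 21 group means, which share libraries between genes and both batches, the genes most like each member were found by Pearson's r of log2 CPM. Fzd1 went most closely with Parva (r = 0.98) and Arhgap42 (0.98), Fzd2 with Galnt16 (0.98) and Col5a1 (0.97), Dkk3 with Antxr1 (0.97) and Aspn (0.97), and Sfrp4 with Scara3 (0.97) and Dcn (0.96). Sfrp1 went with Wisp2 (0.96) and Lgals1 (0.95), Sfrp2 with AW551984 (0.95) and Adamts12 (0.94), Wif1 with Rapgef4 (0.96) and Dkk1 (0.95), Axin2 with A930018M24Rik (0.96) and Ppp6r2 (0.96), and Dkk2 with Lrrn4cl (0.93) and Gpnmb (0.90). Frzb had no gene above 0.83 (Snap91). Over the 15 group means of batch 1 alone, 2 of the 3 most alike genes were shared for Fzd2 and Dkk3, 1 for Sfrp2, Sfrp4, Dkk2 and Wif1, and 0 for Fzd1, Sfrp1, Frzb and Axin2. The most alike genes of those 4 were then Sestd1 (0.99), Vgll3 (0.98), Tslp (0.89) and Syne2 (0.94). Among the members, Axin2 ran against Wif1 (r = -0.72) and Sfrp4 (r = -0.64), over the 21 group means.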

How the data were processed

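RNA from whole knee joints was sequenced as poly(A)+ TruSeq libraries. The authors aligned reads to mm10 with TopHat2 version 2.0.11 and counted them per RefSeq gene with featureCounts, and the values used here are the raw read counts per gene that they deposited. Strand setting and the number of correction factors are not given in the sources used here. The table listed 17313 rows. After 3 repeated rows were dropped, 17310 genes were tested, each already with at least 2 counts in at least 5 libraries. All 100 columns were matched to a sample by title, and 0 of 190 pairs within groups were identical.

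Counts were scaled by TMM and fitted with edgeR 4.0.16 (R 4.3.3) quasi-likelihood tests, 1 mean per strain and joint, separately for each time and once over the 40 uninjured libraries of batch 1. P-values were adjusted over all genes by Benjamini-Hochberg in each of 45 comparisons. SE is the log2 fold change divided by the square root of its F. Levels are TMM-normalised CPM, and correlations used log2 CPM with a prior count of 2. The fit was tested on simulated data, and p-values cover the spread between libraries only. Positions come from the GRCm38.p6 annotation and promoter windows from RefSeq.

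The members, the 65 pathway genes, the 42 markers and the tests were chosen with earlier results of these data known. All 10 members were named. Of the pathway genes, at most 4 per time and direction were named, those called in most strains, then by smallest adjusted p. At most 2 of the 3 most alike genes were named. Alternatives were DESeq2 1.42.0, RLE size factors, RUVg with 1 or 2 factors from 25 housekeeping genes, no filter, filterByExpr, a replicate block, CPM without TMM and leaving out each library. At 2-weeks the labels tie both knees to 1 animal, and deviations of same-numbered joints correlated at -0.39 to 0.0879 in MRL/MpJ, 0.183 to 0.289 in C57BL/6 and 0.243 to 0.525 in STR/ort. At 1-week in STR/ort all 4 pairs correlated above 0.1 (0.176 to 0.412), and in the other strains and at 1-day not every pair did.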

Additional observations from a re-analysis of the deposited data

Results flagged for a closer look

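Over the 210 combinations of a member and a group of 4 or 5 libraries, 7 had a library that stood apart from the others by Dixon's criterion, in 6 libraries, where chance alone gives about 1 in 20. Dkk2 read 32.22 CPM in uninjured C57BL/6 replicate 1 at 1-day, Fzd2 14.45 CPM in injured C57BL/6 replicate 4 at 1-day, Dkk3 97.81 CPM in injured MRL/MpJ replicate 3 at 1-week, Frzb 37.54 CPM in injured STR/ort replicate 5 at 1-week and Fzd2 15.1 CPM in injured C57BL/6 replicate 5 at 1-week, each the highest of its group. Injured MRL/MpJ replicate 3 at 2-weeks was the lowest of its group for both Sfrp1 (9.108 CPM) and Sfrp4 (28.44 CPM).

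The injury response differed between strains by a test of the difference itself in 9 cases (edgeR, adjusted p below 0.05 and fold above 1.5). These were 7 of 30 member comparisons at 1-day, 0 of 30 at 1-week and 2 of 30 at 2-weeks. At 1-day the log2 response of STR/ort minus that of C57BL/6 was -2.354 for Sfrp2, -1.677 for Dkk2, -1.559 for Fzd2, -1.556 for Dkk3 and -1.441 for Sfrp1. At the same time that of C57BL/6 minus that of MRL/MpJ was 1.382 for Sfrp2 and 0.9754 for Dkk3. At 2-weeks the response of STR/ort minus that of MRL/MpJ was 1.061 for Sfrp1 and 0.7918 for Fzd1. The shares of all genes called in these comparisons were 2.66%, 0.318% and 0.451%, in that order. Sfrp2 in C57BL/6 minus MRL/MpJ was lost without any 1 of 9 libraries. At 2-weeks Sfrp1 was lost without any 1 of 7 and Fzd1 without any 1 of 9, and both with filterByExpr. The causes were not tested.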

How the results depend on the processing

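Of the 181 called values, 48 lost the call with 2 factors of unwanted variation, 26 with 1, 4 each with DESeq2 and RLE size factors, 3 with filterByExpr and 0 without a filter. With 2 factors the strain differences at 0-day fell from 15 to 6 calls, of which 4 were among the 15, and Sfrp2 in STR/ort against C57BL/6 (0.08201) and Wif1 in C57BL/6 against MRL/MpJ (-0.306) changed sign. With 2 factors the strain calls at 1-week fell from 18 to 9 (8 of them among the 18) in injured and from 17 to 10 in uninjured joints. The 3 calls of contralateral joints at 1-day against 0-day became 0 with 1 factor, 1 with 2, and 1 to 4 without single libraries, 1 being without 0-day STR/ort replicate 4. The interaction at 1-week gave 0 calls, and 1 (Dkk2) with DESeq2 and with 2 factors, and 0 to 1 without single libraries. The interaction at 2-weeks gave 2 calls, 0 with filterByExpr and 0 to 2 without single libraries. The cause of these changes was not tested. CPM without TMM moved 207 of 210 group means by less than 1 SD.

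With the replicate number as a block, the interaction at 1-week gave 6 calls, where only STR/ort pairs passed the pairing criterion, and 0 without it. They were Wif1 and Frzb in STR/ort against both other strains and Sfrp1 and Dkk2 against MRL/MpJ. The block moved the injury calls at 1-day from 10 to 9 (Dkk3 in C57BL/6 at 0.58) and the interaction from 7 to 9 (adding Frzb in STR/ort minus C57BL/6 at -0.85 and Wif1 in C57BL/6 minus MRL/MpJ), and changed no call at 2-weeks. At 1-day 2, 2 and 3 of 5 injured joints of MRL/MpJ, C57BL/6 and STR/ort correlated best with their own number, a hint from the data and not from the design.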
